A study of Homo sapiens with 6 samples.

Results

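The genes described here are 10 transcripts that the extracellular signal-regulated kinase (ERK) induces and that mostly act back on its pathway, DUSP4, DUSP5, DUSP6, SPRY2, SPRY4, SPRED1, SPRED2, ETV4, ETV5 and PHLDA1, out of 19198 genes in the table. They were chosen by name, with earlier results of these data known, and all 10 passed the filter of a mean of at least 10 normalized counts, as did 16988 of all genes. The cells were MCF10A, an immortalised, non-tumorigenic human mammary epithelial line, measured by RNA-Seq in 6 samples. The 3 control samples are labelled as grown with growth factors, in medium with 10 µg/ml insulin, 20 ng/ml EGF, 100 ng/ml cholera toxin, 0.5 µg/ml hydrocortisone and 5% horse serum. The 3 growth factor-depleted samples are labelled as grown without growth factors, that is, with the 4 added agents left out together while the 5% horse serum was kept. The labels give no day of RNA collection, and nothing says that the samples of a group came from separate cultures, so the p-values here measure only the spread between these samples. Because EGF, insulin, cholera toxin and hydrocortisone were removed together, a change due to EGF cannot be told apart from one due to the other agents.

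EGF binds the receptor tyrosine kinase EGFR, which loads RAS with GTP and drives the kinases RAF, MEK and ERK in turn. Active ERK switches on a small set of genes, partly by phosphorylating ETS transcription factors and partly by inactivating Capicua, a repressor that sits on many of the same promoters. The products form negative feedback loops. DUSP phosphatases remove the activating phosphates from ERK, while Sprouty and Spred proteins act upstream between the receptor and RAF. ETV4 and ETV5 are themselves ETS factors and pass the signal on to further genes. These transcripts are widely read as gauges of ERK output, and the question asked of the 10 genes was whether they were lower in cells without EGF and the other factors.

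RefSeq promoter sequences (GRCh38.p14, 250 bases before to 50 after a start site) were matched by symbol for 6 of the 10 genes, SPRY2, SPRY4, SPRED1, SPRED2, DUSP6 and PHLDA1, with 9 start sites in all. DUSP4, DUSP5, ETV4 and ETV5 were not matched. The 3 promoters below are shown because they hold letters of the ETS or Capicua elements through which ERK is known to reach such genes. Capitals mark those letters, and each run is written 5′ to 3′ on the gene's own strand, which is the minus strand for all 3.

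DUSP6, chr12:89352452-89352751: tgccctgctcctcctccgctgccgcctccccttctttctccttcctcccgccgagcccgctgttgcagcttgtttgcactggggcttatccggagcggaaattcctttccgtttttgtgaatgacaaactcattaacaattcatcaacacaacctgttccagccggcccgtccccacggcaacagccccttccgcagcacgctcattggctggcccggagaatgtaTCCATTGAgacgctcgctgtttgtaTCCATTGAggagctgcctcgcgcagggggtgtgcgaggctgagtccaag
SPRY2, chr13:80341077-80341376: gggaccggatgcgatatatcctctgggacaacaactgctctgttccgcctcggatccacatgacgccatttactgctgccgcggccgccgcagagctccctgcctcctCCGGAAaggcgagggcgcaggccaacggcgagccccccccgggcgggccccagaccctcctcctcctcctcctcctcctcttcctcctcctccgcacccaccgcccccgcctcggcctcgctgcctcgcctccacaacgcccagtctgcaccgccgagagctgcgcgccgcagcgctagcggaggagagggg
PHLDA1, chr12:76031727-76032026: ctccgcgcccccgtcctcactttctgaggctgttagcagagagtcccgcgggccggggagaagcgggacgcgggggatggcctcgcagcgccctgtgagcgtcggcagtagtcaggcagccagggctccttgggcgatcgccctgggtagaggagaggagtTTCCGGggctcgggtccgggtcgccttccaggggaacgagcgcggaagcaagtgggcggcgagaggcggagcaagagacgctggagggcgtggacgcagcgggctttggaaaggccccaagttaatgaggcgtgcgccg

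In the DUSP6 promoter the capitals are the Capicua octamer TCAATGGA read on the opposite strand, and they occur 2 times, at bases 227 and 252. The search covered both strands for the octamers TGAATGAA, TCAATGAA, TGAATGGA and TCAATGGA, and 3.77% of the 35116 promoters in the table hold at least 1 of them. In the SPRY2 and PHLDA1 promoters the capitals are the ETS hexamer CCGGAA, at base 109 in SPRY2 and, on the opposite strand, at base 162 in PHLDA1. That hexamer is in 17.2% of all promoters, so its presence in 2 of the 9 start sites is common. The AP-1 heptamer TGACTCA, found in 4.95% of promoters, was present at 1 SPRED2 start site, and the cyclic AMP response element TGACGTCA, found in 1.85%, was in none of the 9. These searched motifs share no position in the 9 sequences, and a match is only a description of the letters.

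Each sample held between 7472418 and 28672630 reads on genes, with medians of 15342856 in control and 17047310 in growth factor-depleted samples. Normalized counts are read counts divided by a per-sample size factor. They are not divided by gene length, so levels of different genes are compared per kilobase of exon only. The floor, set at 3 reads, equals 1.76 to 6.71 normalized counts in the various samples, and like the other counting limits it leaves out biological spread. The labels call the cells luminal ductal, but control samples held the basal keratin KRT5 at 38503, 12739 and 13008 and the luminal keratin KRT8 at 8635, 8570 and 2442 normalized counts, so markers of both lineages were present. The summed level of 8 mesenchymal markers was between 3827 and 11317 in control and between 119558 and 191312 in growth factor-depleted samples. By limma, on the rule given in the next paragraph, 8 of 8 were called higher, against 4.36% of all genes. Summed basal markers ranged from 42471 to 65489 in control and from 40940 to 148153 in depleted samples, the highest of which held KRT17 at 123480. Of the 6 basal markers 4 had log2 fold changes below 0 (median -0.68), and 1, TP63, was called lower. Summed luminal markers ranged from 9115 to 18676 and from 18425 to 31712, in the depleted samples mostly KRT8 and KRT18, while 6 of the 8 had log2 fold changes below 0 (median -0.85), and 1, KRT19, was called lower. Over all genes tested, 8809 of 16988 log2 fold changes were below 0 (median -0.03), and 1.97% were called lower. The 4 endothelial markers summed to between 167 and 1787 in control and between 265 and 1610 in depleted samples. Of these CDH5 was called higher, at a log2 fold change of 3.37 (adjusted p = 0.0282, limma). KDR at -3.83 (adjusted p = 0.193, limma) and PECAM1 at 0.09 (adjusted p = 0.981, limma) were not called. The 2 leukocyte markers listed, PTPRC and LYZ, summed to at most 26.3 in any sample. The part of this marker shift in the values below was not tested, and in RNA from whole cultures fewer cells of a type and less RNA per cell cannot be told apart.

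None of the 10 ERK feedback and ETS target genes passed a test as lower after growth factor depletion. A gene was called by limma when it changed 2-fold or more and its p, adjusted by Benjamini-Hochberg over all genes, was below 0.05. On that rule 0 of the 10 were called lower, against a background of 1.97% of all genes, and 0 were lower even at an unadjusted p under 0.05, against 8.62%. The edgeR and DESeq2 tests also called 0 of them lower, against 1.70% and 4.87% of all genes. A count of 0 among 10 genes is near each of these backgrounds. All 10 limma log2 fold changes were above 0, from 0.27 for PHLDA1 to 2.79 for SPRY4. Their median was 0.87, beside -0.03 over all genes tested. That of ETV4 was below 0 by edgeR (-0.51) and DESeq2 (-0.53). By limma 0 were called higher either, against a background of 4.36%. At an unadjusted p under 0.05, 5 of the 10 were higher, DUSP5, DUSP6, SPRY2, SPRY4 and ETV5, against 11.4% of all genes. By edgeR 0 were called higher (background 4.02%), and by DESeq2 1, ETV5 (background 7.60%). With 3 samples a side, the smallest two-sided p of an exact permutation test is 0.1, so none was used for single genes.

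**Figure D1:**
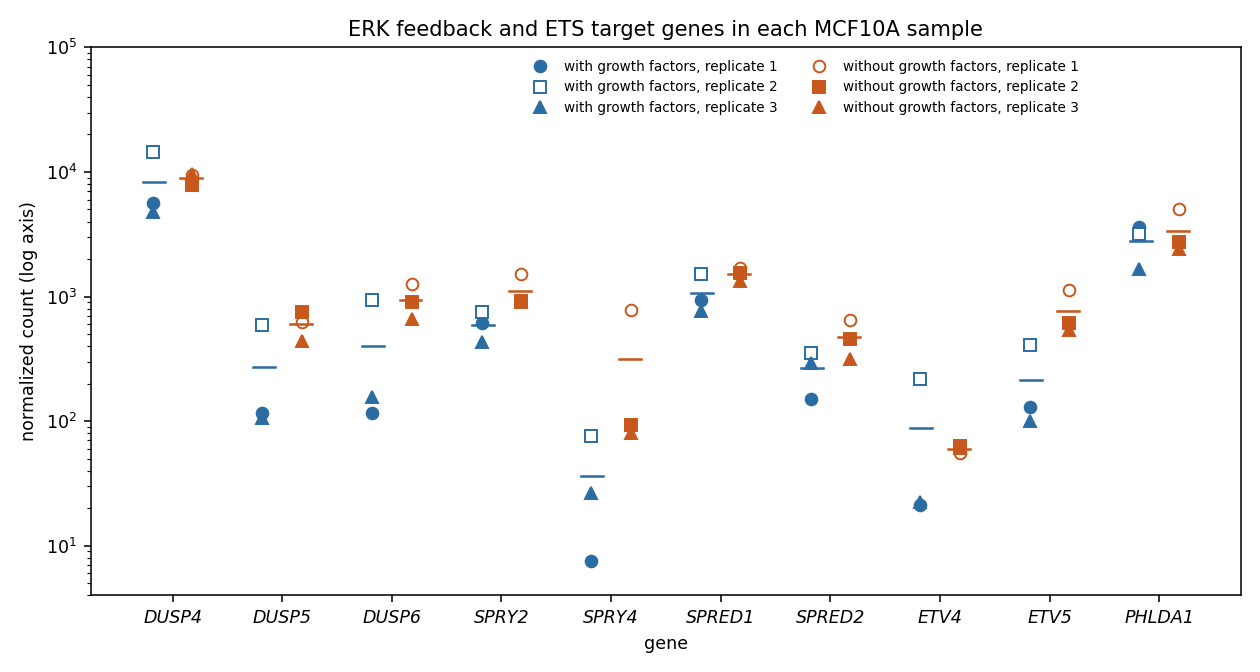
Normalized counts on a log axis for each of the 10 genes, with control samples in blue and growth factor-depleted samples in orange, 1 symbol per replicate and a bar at each group mean (n = 3). The open blue square, control replicate 2, lies far above the other control samples for DUSP4, DUSP5, DUSP6, SPRY4, ETV4 and ETV5, and the open orange circle, depleted replicate 1, far above the others for SPRY4.

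DUSP6 encodes the cytoplasmic phosphatase most specific for ERK and lies at chr12:89347235-89352501 (hg38, minus strand). Its normalized counts were 115.3, 936.2 and 157.4 in control replicates 1, 2 and 3 and 1266, 902.2 and 659.6 in depleted replicates 1, 2 and 3. Control replicates 1 and 3 were far below every depleted sample, but control replicate 2 was above depleted replicates 2 and 3, so the groups overlap. The log2 fold change was 1.82 with an SE of 0.72, which is 3.52-fold with a 95% interval from 1.13 to 11.0 (adjusted p = 0.201, limma). An antisense gene, ENSG00000274021, covers 1105 bases or 28.6% of the DUSP6 exons. It was listed at no more than 16.5 normalized counts in any sample, and whether the counting used strand is not given in the sources used here.

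DUSP5, the nuclear counterpart that binds ERK tightly, lies at chr10:110497907-110511533 on the plus strand. Its values were 115.3, 596.4 and 105.3 in control and 621.5, 748.8 and 440.5 in depleted samples. The layout was that of DUSP6, with a pair of low control samples and control replicate 2 inside the depleted range. It had a log2 fold change of 1.60 with an SE of 0.64 and a 95% interval from 0.14 to 3.06 (adjusted p = 0.205, limma).

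DUSP4, a nuclear phosphatase that acts on ERK and other MAP kinases (chr8:29333064-29350684, minus strand), was measured at 5652, 14521 and 4805 normalized counts in control and 9414, 7863 and 9550 in depleted samples. Control replicate 2 held the highest value of all 6 and the other control samples the lowest. Its log2 fold change was 0.28 with an SE of 0.45 and a 95% interval from -0.75 to 1.31 (adjusted p = 0.794, limma), an interval that takes in both a fall and a rise.

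SPRY2, a Sprouty protein that restrains receptor tyrosine kinase signalling to RAS and RAF (chr13:80335976-80341126, minus strand), had 609.1, 745.2 and 433.8 normalized counts in control and 1516, 916.6 and 898.8 in depleted samples. Every depleted sample was above every control sample. The difference was small, with a log2 fold change of 0.89, an SE of 0.33 and a 95% interval from 0.12 to 1.65 (adjusted p = 0.180, limma).

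SPRY4, a second Sprouty gene (chr5:142310427-142326455, minus strand), was at 7.5, 75.6 and 26.6 normalized counts in control samples, the first of which rests on 6 reads. Its depleted values were 778.0, 93.1 and 80.5, again all above control. Depleted replicate 1 was 8.96 times the mean of the other depleted samples. Its log2 fold change of 2.79 was the largest among the 10 genes, with the widest SE, 1.04, and a 95% interval from 0.43 to 5.16 (adjusted p = 0.172, limma). Without depleted replicate 1 the log2 fold change was 1.74.

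The Spred proteins SPRED1, which brings the RAS-GTPase activator neurofibromin to the membrane, and SPRED2 showed small differences. SPRED1 (chr15:38252836-38357249, plus strand) was at 931.2, 1515 and 772.2 in control and 1705, 1539 and 1321 in depleted samples. Only control replicate 2 reached the depleted range, and the log2 fold change was 0.56 with an SE of 0.32 and a 95% interval from -0.17 to 1.28 (adjusted p = 0.391, limma). SPRED2 (chr2:65310851-65432637, minus strand) was at 150.4, 353.9 and 294.1 in control and 651.7, 456.3 and 317.5 in depleted samples. Its groups overlapped through control replicate 2 and depleted replicate 3, and the log2 fold change was 0.86 with an SE of 0.43 and a 95% interval from -0.11 to 1.84 (adjusted p = 0.316, limma).

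ETV5, an ETS activator of the PEA3 subfamily (chr3:186046314-186110318, minus strand), came closest to a call. Its values were 130.3, 408.9 and 100.3 in control and 1124, 617.0 and 536.6 in depleted samples. Every depleted sample exceeded every control sample, and control replicate 2 was the nearest control. Its log2 fold change was 2.03 with an SE of 0.55, which is 4.09-fold with a 95% interval from 1.71 to 9.81 (adjusted p = 0.0700, limma). DESeq2 gave an adjusted p of 0.0164 and edgeR one of 0.100 for the same gene. ETV5 shares 164 exon bases, 2.84% of its exons, with DGKG on the same strand, which was listed at no more than 17.4.

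ETV4, of the same subfamily (chr17:43527844-43579620, minus strand), had groups that overlapped through control replicate 2, which those of ETV5 did not. It was at 21.3, 219.1 and 22.6 normalized counts in control and 55.8, 62.9 and 60.4 in depleted samples. The depleted samples lay close together, above a pair of control samples and below control replicate 2, which was 9.98 times the mean of the other controls. The sign of its change rests on the scale, with a log2 fold change of 0.31 (SE 0.85, 95% interval -1.64 to 2.26, adjusted p = 0.889, limma) but a ratio of group means of 0.681. The fold changes were -0.51 by edgeR and -0.53 by DESeq2 on the log2 scale. Without control replicate 2 the log2 fold change of ETV4 was 1.40 (adjusted p = 0.223, limma). A difference between ETV4 and ETV5 was not tested. ETV4 shares 68 exon bases, 1.93%, with DHX8 on the other strand, which reached 2466 normalized counts.

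PHLDA1, a pleckstrin homology-like domain protein whose transcript follows ERK activity (chr12:76025447-76031776, minus strand), was at 3597, 3158 and 1650 in control and 5005, 2741 and 2401 in depleted samples. The groups overlapped widely, and it was the only one of the 10 in which control replicate 2 was not the highest control. The log2 fold change was 0.27 with an SE of 0.41 and a 95% interval from -0.67 to 1.21 (adjusted p = 0.779, limma), and it turned to -0.05 without depleted replicate 1. PHLDA1 exons overlap PHLDA1-AS1 on the other strand over 553 bases, 9.35% of their length, a gene not analysed here.

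Groups that did not overlap were seen for 3 of the 10 genes with the depleted samples higher, SPRY2, SPRY4 and ETV5, against 13.5% of all genes, and for 0 with the depleted samples lower, against 12.1%. A ratio of group means of at least 2 was reached by 4, DUSP5 at 2.22, DUSP6 at 2.34, ETV5 at 3.56 and SPRY4 at 8.68, against 13.0% of all genes. Of the other 6 ratios, that of ETV4 was below 1 and the remaining values lay between 1.07 for DUSP4 and 1.86 for SPRY2.

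Per kilobase of exon, DUSP4 was the most abundant of the 10 in both conditions, with a mean of 1145 ± 740 normalized counts per kilobase in control and 1230 ± 129 in depleted samples (SD, n = 3). In control samples it was followed by PHLDA1 at 474 ± 173, SPRY2 at 186 ± 48.6, SPRED1 at 138 ± 50.5, DUSP5 at 107 ± 111, DUSP6 at 104 ± 120, SPRED2 at 48.3 ± 19.0, ETV5 at 36.9 ± 29.5, ETV4 at 24.9 ± 32.4 and SPRY4 at 5.58 ± 5.36. Of these neighbours only PHLDA1 and SPRY2 were further apart than the sum of their SDs. In depleted samples the order was DUSP4, PHLDA1 at 572 ± 239, SPRY2 at 346 ± 109, DUSP6 at 244 ± 79.1, DUSP5 at 238 ± 61.1, SPRED1 at 196 ± 24.8, ETV5 at 132 ± 55.2, SPRED2 at 86.3 ± 30.5, SPRY4 at 48.4 ± 60.9 and ETV4 at 17.0 ± 1.02. There only DUSP4 and PHLDA1 were apart by that measure. SPRY4 was the lowest of the 10 per kilobase in each control sample. That it ranked above ETV4 by the depleted means rests on depleted replicate 1, where SPRY4 was at 118.7 and ETV4 at 15.9 per kilobase. In depleted replicates 2 and 3 SPRY4 was at 14.2 and 12.3 and ETV4 at 17.9 and 17.2.

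The controls differed from each other on these genes. Control replicate 2 held the highest control value for 9 of the 10, while over all genes tested it was the highest control in 31.9%. Its log2 level minus the mean of the other controls had a median of 1.65 over the 10 genes and 0.02 over all genes. The excess was 9.98-fold for ETV4, 6.87-fold for DUSP6, 5.41-fold for DUSP5, 4.44-fold for SPRY4, 3.55-fold for ETV5 and 2.78-fold for DUSP4 over the mean of control replicates 1 and 3. It was smaller for SPRED1 at 1.78-fold, SPRED2 at 1.59-fold, SPRY2 at 1.43-fold and PHLDA1 at 1.20-fold. Control replicate 2 was also the deepest library, with the 28672630 reads given above, and the part of depth or culture in its levels was not tested. The median SD of the log2 values over the 10 genes was 0.97 in control and 0.45 in depleted samples, beside 0.60 and 0.35 over all genes.

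**Figure D2:**
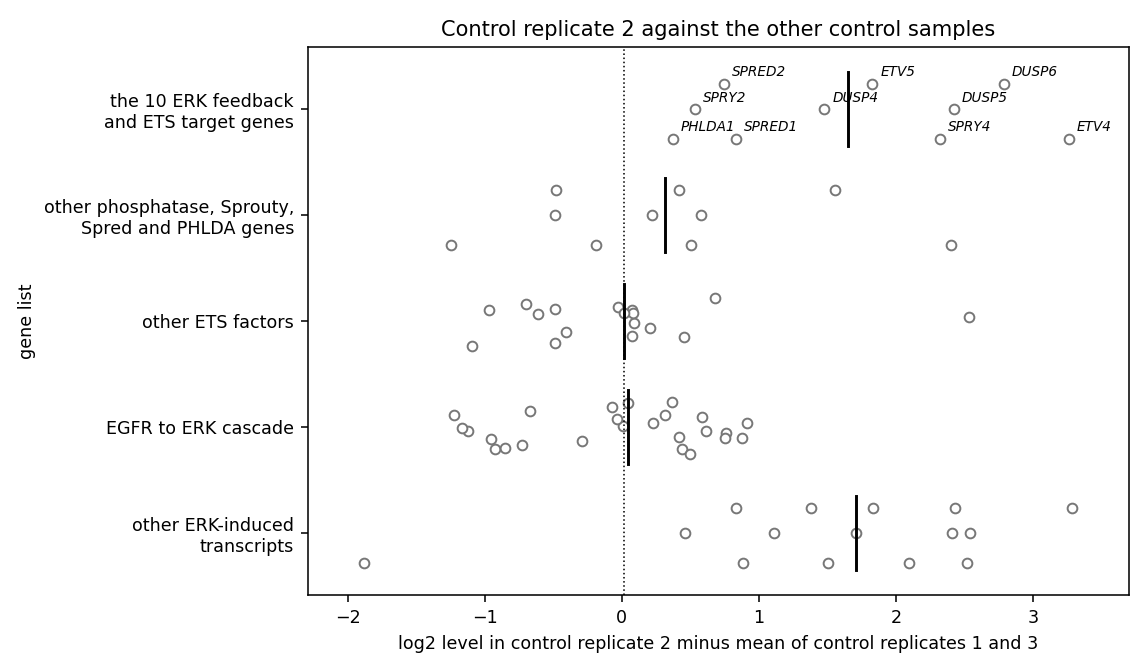
Log2 level in control replicate 2 minus the mean log2 level of control replicates 1 and 3, with 1 circle per gene, a black bar at each list's median and a dotted line at the median of all genes tested (0.02). The 10 genes, labelled, all lie to the right, with a median of 1.65, and the other ERK-induced transcripts have a median of 1.71, with EPHA4 far to the left at -1.88, while the lists of the cascade (0.05) and of other ETS factors (0.02) centre near 0. The other phosphatase, Sprouty, Spred and PHLDA genes lie between, with a median of 0.32.

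Each of the 6 libraries was left out in turn, and only without control replicate 2 were any of the 10 called. DUSP5 was then called higher at a log2 fold change of 2.41 (adjusted p = 0.0166, limma), DUSP6 at 2.75 (adjusted p = 0.0124, limma) and ETV5 at 2.64 (adjusted p = 0.0185, limma), 3 of 10 genes against a background of 2.94%. Since that library held the highest control value of all 3, leaving it out could only raise their differences. With depleted replicate 1 left out as well, the library that stood apart for SPRY4, the same 3 genes were called, at 2.37 for DUSP5 (adjusted p = 0.0430, limma), 2.51 for DUSP6 (adjusted p = 0.0282, limma) and 2.32 for ETV5 (adjusted p = 0.0359, limma), against 2.84% of all genes. That pair of omissions was chosen after seeing the data, so these calls are no independent test. Depleted replicate 1 was the highest depleted sample for 7 of the 10 genes, beside 39.0% of all genes. It was the highest of the 3 for 3 of 6 basal and 3 of 8 luminal markers, near that share, and for 5 of 8 mesenchymal markers. Its log2 level minus the mean of the other depleted samples had a median of -0.62 over basal and -0.21 over luminal markers. That median was 0.93 over mesenchymal markers and 0.73 over the 10 genes, beside 0.04 over all genes. Single epithelial markers differed in both directions. KRT5 was at 562.0 normalized counts against 10908 and 14996 in depleted replicates 2 and 3, and KRT14 at 980.3 against 193.4 and 306.3.

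**Figure D3:**
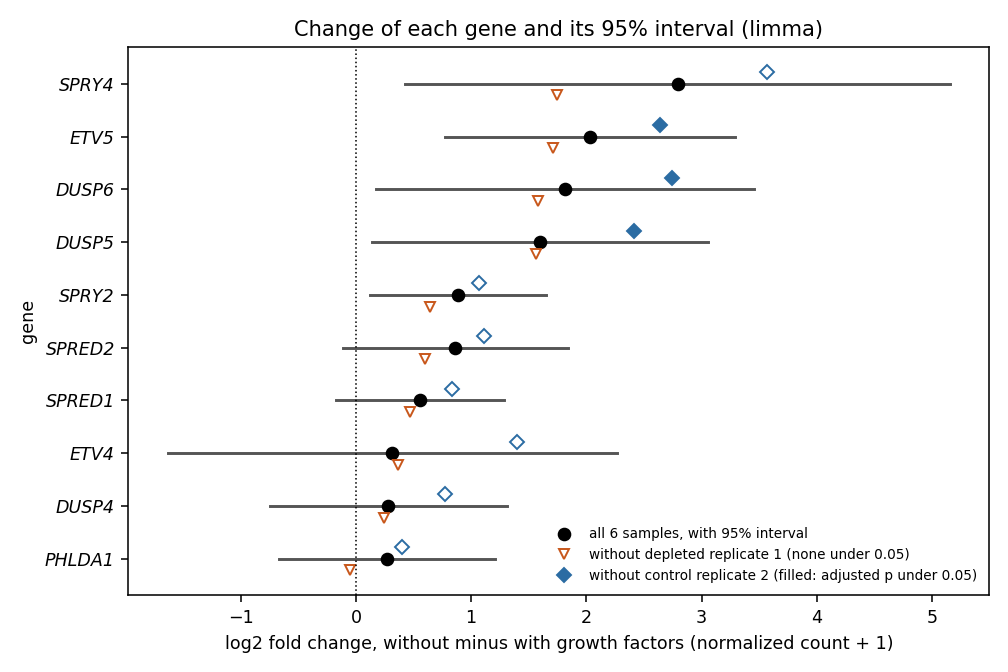
Log2 fold change of each of the 10 genes, growth factor-depleted minus control, with black circles and 95% intervals for all 6 samples (limma), blue diamonds for the fit without control replicate 2 and orange triangles for the fit without depleted replicate 1. Every circle is above 0, the intervals of SPRED2, SPRED1, ETV4, DUSP4 and PHLDA1 cross 0, and the diamonds filled for an adjusted p under 0.05 are DUSP5, DUSP6 and ETV5.

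The near relatives of the 10 genes were 12 other phosphatase, Sprouty, Spred and PHLDA family genes, of which 10 were tested and DUSP9 and SPRY3 were not analysed here. Of the 10, 0 were called by limma or edgeR. Over all genes limma called 4.36% higher and 1.97% lower, and edgeR 4.02% and 1.70%, so a count of 0 is near these shares. DESeq2 called 1 higher, SPRY1, and 1 lower, DUSP16, against 7.60% and 4.87% of all genes. At an unadjusted p under 0.05 (limma), 3 were higher and 1 lower, against 11.4% and 8.62% of all genes. The median log2 fold change was 1.02. SPRY1, another Sprouty gene, was at 33.8, 44.5 and 25.6 in control and 662.7, 107.5 and 102.9 in depleted samples, a log2 fold change of 2.49 (adjusted p = 0.0882, limma). SPRED3 had a log2 fold change of 2.44 (adjusted p = 0.206, limma), and the ERK phosphatase DUSP2 one of -1.61 (adjusted p = 0.500, limma). The gene lower at an unadjusted p under 0.05 was DUSP16, with every depleted sample below every control. Its log2 fold change was -1.43 (adjusted p = 0.0712, limma), with an adjusted p of 0.0223 by DESeq2.

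The other ETS factors included the gene with the largest log2 fold change among those tested in the 5 pathway lists, ETV1, the third gene of the PEA3 subfamily beside ETV4 and ETV5. Its values were 13.8, 97.8 and 18.7 in control and 1351, 662.2 and 930.2 in depleted samples, so control replicate 2 was again the highest control yet far below every depleted sample. The log2 fold change was 4.94 with an SE of 0.70 (adjusted p = 0.00520, limma), and the call was kept in all 20 alternatives. Of 17 ETS genes tested, 2 were called higher, ETV1 and ETS1, against 4.36% of all genes. None was called lower by limma, against 1.97%, and the median was 0.00. Every depleted sample was below every control for 5 of the 17, against 12.1% of all genes. For 4 every depleted sample was above, against 13.5%. ETS1 had a log2 fold change of 1.27 (adjusted p = 0.0413, limma), with its call lost in 9 of 20 alternatives. Among those not called by limma, the epithelial factors ELF3 and EHF were at -1.80 (adjusted p = 0.0664, limma) and -1.73 (adjusted p = 0.0537, limma), and ETV2 at 1.53 (adjusted p = 0.175, limma). DESeq2 called 2 of the 17 lower, ELF3 (adjusted p = 0.00768, DESeq2) and EHF (adjusted p = 0.00212, DESeq2), against 4.87% of all genes. EHF was called in 7 of 20 alternatives and ELF3 in 1.

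Upstream, 25 genes of the cascade from EGFR to ERK were tested. By limma 2 were called lower, against 1.97% of all genes, and 0 higher, against 4.36%. Their median was -0.28 beside -0.03 over all genes. Of the 25 values 20 were below 0, as were 8809 of the 16988 over all genes tested. EGFR, the receptor of the removed EGF, was at 10275, 7392 and 19140 normalized counts in control and 4295, 2813 and 1498 in depleted samples. The groups did not overlap, and the log2 fold change was -2.11 with an SE of 0.49 (adjusted p = 0.0410, limma), just inside the threshold and lost in 8 of 20 alternatives, edgeR among them (adjusted p = 0.0593, edgeR). KSR1, a scaffold that holds RAF, MEK and ERK together, was at 203.0, 461.6 and 465.3 in control and 54.9, 94.4 and 62.6 in depleted samples, a log2 fold change of -2.34 (adjusted p = 0.0196, limma) whose call was lost in 5 of 20. ERBB3 at -1.71 (adjusted p = 0.139, limma), RPS6KA1 at -0.99 (adjusted p = 0.119, limma) and BRAF at -0.84 (adjusted p = 0.297, limma) were not called.

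A list of 15 other ERK-induced transcripts split in both directions, with a median of 0.69. By limma 2 were called higher, against 4.36% of all genes, and 2 lower, against 1.97%. CCND1, which encodes cyclin D1, was at 1355, 4257 and 734.8 in control and 11808, 8902 and 10258 in depleted samples, a log2 fold change of 2.66 (adjusted p = 0.0313, limma), and IER3, an immediate early gene, changed by 1.52 (adjusted p = 0.0385, limma). The genes called lower were both EGFR ligands, while another EGFR ligand in the list, HBEGF, was not called. HBEGF was at 63.9, 532 and 153.5 in control and 107.1, 1056 and 1968 in depleted samples. Its log2 fold change was 1.80 (adjusted p = 0.425, limma). AREG (amphiregulin) was at 950.0, 3951 and 565.6 in control and 85.1, 59.0 and 82.7 in depleted samples, a log2 fold change of -4.09 (adjusted p = 0.00840, limma). EREG (epiregulin) was at 353.4, 1435 and 721.1 in control and 100.7, 16.4 and 17.9 in depleted samples, a log2 fold change of -4.48 (adjusted p = 0.0120, limma). AREG was called in all 20 alternatives and EREG in 18, while CCND1 lost its call in 7 and IER3 in 8. The cytokine LIF at 3.04 (adjusted p = 0.0527, limma), FOS at -2.78 (adjusted p = 0.366, limma) and the ephrin receptor EPHA4 at 2.78 (adjusted p = 0.0742, limma) were not called. MYC at -2.01 (adjusted p = 0.0530, limma) was not called either, though every depleted sample was below every control. DESeq2 called MYC lower (adjusted p = 0.00135, DESeq2) and LIF higher (adjusted p = 0.00272, DESeq2). Control replicate 2 was the highest control for 13 of these 15 transcripts as well.

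**Figure D4:**
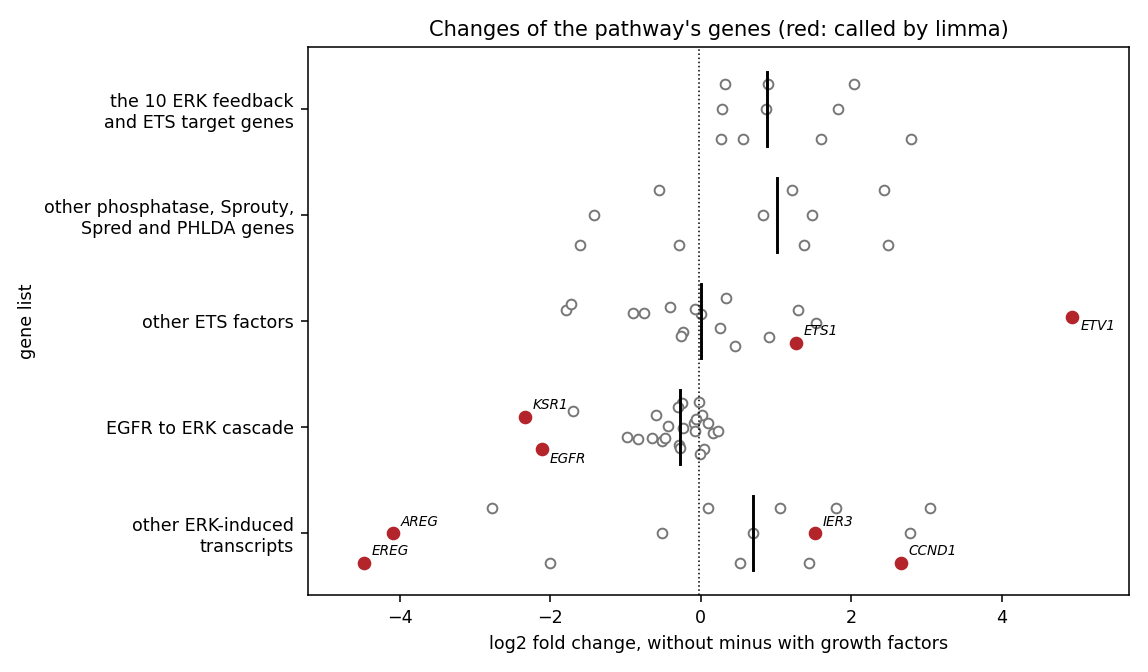
Log2 fold change, growth factor-depleted minus control, with 1 circle per tested gene in 5 gene lists, a black bar at each list's median and a dotted line at the median of all genes (-0.03). Red circles are genes called by limma, ETV1, ETS1, CCND1 and IER3 higher and EGFR, KSR1, AREG and EREG lower, and the row of the 10 ERK feedback and ETS target genes holds no red circle and no value below 0.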

How the data were processed

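RNA-Seq of 6 MCF10A samples was used, grouped by their labels. The authors depleted ribosomal RNA, made stranded libraries, sequenced single-end reads, trimmed them with cutadapt 1.6 per the labels, mapped to hg38 with TopHat2, counted with HTSeq 0.6 on Gencode v22 and normalized with DESeq2 1.8.1 in R 3.2.0. The deposited values are a normalized signal, counts divided by size factors, and 100% were whole multiples of 1 read (tolerance 0.01). Symbols and coordinates came from Gencode v44 (hg38), which names 18913 of 19198 identifiers.

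limma 3.58.1 (R 4.3.3, eBayes with a trend) was fitted to log2(normalized count + 1) for 16988 genes with a mean of at least 10, so fold changes of low genes are understated. Called meant a Benjamini-Hochberg adjusted p under 0.05 over all genes and at least 2-fold. edgeR 4.0.16 and DESeq2 1.42.0, run on reads recovered from the values, were set as alternatives because the deposited values are normalized and not raw counts. All were also run on simulated counts, in which no library stood apart on a set of genes as control replicate 2 did here. The 10 genes and the other lists were chosen with earlier results of these data known. From the pathway lists, genes called and up to 3 others with the largest changes are named, with DUSP16, HBEGF and MYC added, and marker genes where a sentence needed them.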

Additional observations from a re-analysis of the deposited data

How the results depend on the processing

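Of 200 log2 fold changes of the 10 genes, each gene under 20 alternatives, 186 kept their direction and their side of the threshold, 7 passed the threshold, and 7 changed sign. DUSP5, DUSP6, SPRY2, SPRY4, SPRED1, SPRED2 and ETV5 never fell below 0. With single libraries left out, DUSP4 ranged from -0.024 (without control replicate 3) to 0.77, ETV4 from -0.25 to 1.40 and PHLDA1 from -0.072 (without control replicate 3) to 0.49, and ETV4 was -0.51 by edgeR and -0.53 by DESeq2. No alternative called any of the 10 lower. The number called higher, 0 by limma on all samples, was 1 by DESeq2, 4 by a 2-fold ratio of means with no p threshold, and 0 to 3 with single libraries left out (3 without control replicate 2). With control replicate 2 and depleted replicate 1 both left out, an alternative chosen after seeing the data, it was 3. DESeq2 gave no adjusted p for SPRY4.

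Over all genes, 1076 were called, 2112 by DESeq2, 4205 by the ratio alone, 670 in those 4 libraries, and 453 to 2474 with single libraries left out (control replicates 1, 2 and 3: 634, 675 and 2474; depleted replicates 2 and 3: 453 and 467). DESeq2 called 2 related feedback genes, the ratio alone 6, and single omissions 0 to 1 (1 without control replicate 2 or 3), where all samples gave 0. Other ETS factors numbered 2, but 4 by DESeq2 or with no filter on low values, 6 by the ratio, 1 in the 4 libraries and 1 to 3 with single omissions (1 without any sample except control replicate 3). Cascade genes numbered 2, but 1 by edgeR, without the trend, with quantile normalization, rescaled to the same total or in the 4 libraries, 4 by the ratio, and 0 to 4 with single omissions (4 without control replicate 3, 0 without depleted replicate 2 or 3, 1 without each of the others). Other ERK-induced transcripts numbered 4, but 2 without the trend, 11 by the ratio, and 1 to 6 with single omissions (2 without control replicate 1 or depleted replicate 3, 1 without depleted replicate 2). The cause of these moves was not tested.

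Same-numbered control and depleted samples did not deviate together, with correlations of -0.07, -0.28 and -0.32, so the numbers were not taken as pairs. In the fit with a replicate block, 967 genes were called, 0 of the 10, 1 other ETS factor, 1 cascade gene and 7 ERK-induced transcripts, and ETV5 had an adjusted p of 0.0502 (limma). With the block and a length and GC correction together the counts were 689 genes, 1 ETS factor and 1 ERK-induced transcript.

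EGFR lost its call without control replicate 1 (adjusted p = 0.108, limma) or depleted replicate 2 (0.130) or 3 (0.163), KSR1 without control replicate 2 (0.0772) or depleted replicate 1 (0.0537), 2 (0.0506) or 3 (0.0858), and EREG without depleted replicate 2 (0.0518). ETS1 kept its call in 1 of the 6 omissions, without control replicate 3, and had an adjusted p of at most 0.154 (limma) in the others. CCND1 kept its call only without control replicate 2 or 3 (otherwise at most 0.115), and so did IER3 (otherwise at most 0.167). SPRY4 in control replicate 1 rests on 6 reads.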
